A study of Homo sapiens with 17 samples.

Results

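Later-intron peaks are the open-chromatin regions that lie in any intron of a gene other than the first. They were taken from the deposited peak table as every row whose annotation names an intron and does not name intron 1, which gave 11515 of 58372 peaks, or 19.7% of the set. All peaks have the same width, and each is described below by the gene named inside its annotation, called its host gene. HepG2, an established line from a human liver carcinoma that carries no engineered change per the labels, was grown for 4 days with daily medium change at 0 µM (the control), 2 µM or 10 µM 5-azacytidine. ATAC-seq, which reads out DNA open to a cutting enzyme, gave 3, 3 and 2 libraries at these doses, and RNA-seq gave 3 libraries for each dose. The labels call these libraries biological replicates and do not say whether each came from its own culture, so every p below measures only the spread between these libraries.

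5-Azacytidine is a cytidine analogue that is built into RNA and DNA and traps DNA methyltransferases, so that methylation is lost as cells divide. Introns beyond the first are spliced out of the transcript, yet their DNA holds many enhancers, sites where transcription factors open chromatin and act on a promoter that may be near or far, and also alternative start sites. Gene bodies of transcribed genes are usually methylated at CpG sites, whereas most promoters in CpG islands are not. In liver cells such intronic enhancers are bound by factors such as HNF4A, FOXA and CEBP, and in many cell types stress and growth signals act through AP-1, a dimer of FOS and JUN proteins that binds TGANTCA.

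Sequence could be read only where a later-intron peak overlapped a RefSeq promoter window, the stretch from 250 bases before to 50 bases after an annotated start in GRCh38.p14 (the hg38 assembly). This held for 68 peaks and 73 windows, 33 of them wholly inside the peak. The 8 windows below are shown because they lie in peaks that rose or fell at 10 µM over 0 µM, and they are 300 bases each, written 5′ to 3′ on the strand of the start. They were chosen after their values were seen. Capitals mark matches, on either strand, to the AP-1, TEAD or GATA motifs, whose letters are spelled out with the motif counts. The first 4 lie in peaks that rose at 10 µM.
LOC124901162 start in LPCAT1 intron 4, chr5:1489281-1489580, plus strand: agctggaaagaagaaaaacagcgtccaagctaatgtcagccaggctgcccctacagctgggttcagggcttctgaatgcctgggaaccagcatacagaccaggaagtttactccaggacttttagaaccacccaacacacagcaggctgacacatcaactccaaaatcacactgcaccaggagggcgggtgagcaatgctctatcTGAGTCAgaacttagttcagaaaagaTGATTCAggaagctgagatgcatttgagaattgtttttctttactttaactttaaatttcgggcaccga
LOC124904075 start in RPTOR intron 18, chr17:80892122-80892421, minus strand: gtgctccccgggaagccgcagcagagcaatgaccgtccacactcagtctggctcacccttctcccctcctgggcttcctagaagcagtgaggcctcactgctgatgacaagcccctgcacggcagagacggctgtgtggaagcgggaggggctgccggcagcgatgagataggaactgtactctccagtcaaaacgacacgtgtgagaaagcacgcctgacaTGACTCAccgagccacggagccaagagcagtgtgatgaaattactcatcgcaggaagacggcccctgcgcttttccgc
LOC124904068 start in TIMP2 intron 3, chr17:78861975-78862274, plus strand: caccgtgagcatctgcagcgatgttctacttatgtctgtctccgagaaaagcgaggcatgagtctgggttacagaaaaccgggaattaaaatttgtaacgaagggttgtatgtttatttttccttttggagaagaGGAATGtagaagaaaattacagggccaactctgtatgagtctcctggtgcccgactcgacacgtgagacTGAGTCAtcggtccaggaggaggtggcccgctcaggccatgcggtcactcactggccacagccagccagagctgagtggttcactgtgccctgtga
HDAC4 start in HDAC4 intron 2, chr2:239267465-239267764, minus strand: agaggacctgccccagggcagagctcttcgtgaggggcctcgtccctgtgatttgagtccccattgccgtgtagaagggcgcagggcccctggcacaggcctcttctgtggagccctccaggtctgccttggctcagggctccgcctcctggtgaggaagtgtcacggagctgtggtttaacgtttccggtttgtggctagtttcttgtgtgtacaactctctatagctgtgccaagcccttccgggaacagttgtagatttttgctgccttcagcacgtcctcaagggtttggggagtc
The next 4 lie in peaks that fell at 10 µM.
LOC124904042 start in TBX4 intron 3, chr17:61460793-61461092, minus strand: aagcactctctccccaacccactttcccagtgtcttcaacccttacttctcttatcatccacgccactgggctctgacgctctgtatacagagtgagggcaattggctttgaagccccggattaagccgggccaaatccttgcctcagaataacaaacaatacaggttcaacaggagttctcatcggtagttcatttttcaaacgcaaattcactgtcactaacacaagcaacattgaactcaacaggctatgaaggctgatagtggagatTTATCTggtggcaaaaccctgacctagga
LOC124902651 start in BBOX1-AS1 intron 2, chr11:27202004-27202303, plus strand: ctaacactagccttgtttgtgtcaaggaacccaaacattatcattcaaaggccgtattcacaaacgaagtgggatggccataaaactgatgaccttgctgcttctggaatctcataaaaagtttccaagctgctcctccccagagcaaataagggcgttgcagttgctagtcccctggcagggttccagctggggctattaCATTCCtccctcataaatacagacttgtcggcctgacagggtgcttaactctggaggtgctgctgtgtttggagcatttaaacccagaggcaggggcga
LOC124903712 start in PHLPP2 intron 5, chr16:71670550-71670849, plus strand: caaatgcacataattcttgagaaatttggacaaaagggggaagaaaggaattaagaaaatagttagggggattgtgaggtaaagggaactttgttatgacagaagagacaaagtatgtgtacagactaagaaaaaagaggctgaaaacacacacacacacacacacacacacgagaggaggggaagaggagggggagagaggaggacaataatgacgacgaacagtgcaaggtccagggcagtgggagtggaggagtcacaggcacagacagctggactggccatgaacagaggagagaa
TET1 start in TET1 intron 2, chr10:68600224-68600523, plus strand: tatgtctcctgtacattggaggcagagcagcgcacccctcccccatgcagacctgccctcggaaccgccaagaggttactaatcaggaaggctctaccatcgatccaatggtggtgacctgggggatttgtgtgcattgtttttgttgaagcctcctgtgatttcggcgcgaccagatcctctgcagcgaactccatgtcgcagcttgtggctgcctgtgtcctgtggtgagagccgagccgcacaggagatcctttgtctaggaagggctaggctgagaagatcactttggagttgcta
TIMP2 intron 3 holds an AP-1 and a TEAD match, LPCAT1 intron 4 holds 2 AP-1 matches, and RPTOR intron 18 holds 1. No AP-1 match is in the windows of the TBX4, BBOX1-AS1, PHLPP2, TET1 and HDAC4 peaks.

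The 8 ATAC libraries held 2896671 to 7864321 reads in peaks. The 10 µM libraries stood apart from the others within the later-intron peaks. Across these peaks, Pearson's r of log2(CPM + 1) was 0.91 to 0.969 between libraries of the same dose, 0.78 to 0.859 between 2 µM and 0 µM libraries, and -0.061 to 0.055 between 10 µM and 0 µM libraries. In promoter peaks the last of these ranges was 0.686 to 0.734. These values share libraries and serve as a description. In RNA, the 13 hepatocyte markers summed to 38600 to 68200 CPM (counts scaled to a common library size) at 0 µM, 19000 to 33600 CPM at 2 µM and 1490 to 2450 CPM at 10 µM, with ALB, the main plasma protein, still at 630 to 1160 CPM at 10 µM. The leukocyte list of 25 genes summed to 2340 to 3460 CPM, 1140 to 1710 CPM and 99.8 to 129 CPM at 0, 2 and 10 µM, with most of the sum from LYZ and 7 genes at 0 in all 9 libraries, among them PTPRC, the leukocyte phosphatase CD45. The 17 fibroblast markers summed to 795 to 2330 CPM, 569 to 730 CPM and 213 to 274 CPM, and the 17 cholangiocyte and other epithelial markers to 1360 to 1570 CPM, 1270 to 1790 CPM and 628 to 1350 CPM, with 1 and 2 genes of these lists at 0 throughout. Within falling sums some genes rose at 10 µM over 0 µM: RELN, at 28.3 to 38.7 CPM at 10 µM against 697 to 2260 CPM at 0 µM, carried the fibroblast fall, whereas TAGLN rose by 2.09, and KRT19 and CD79A rose by 2.17 and 5.51 in the epithelial and leukocyte lists. The 15 endothelial markers summed to 24.7 to 50.3 CPM, 69.7 to 163 CPM and 282 to 396 CPM, with CLEC14A, EMCN and STAB2 at 0 in all 9 libraries. ESAM, a junction protein, gave 348, 270 and 374 CPM of this sum at 10 µM and 9.59, 14.7 and 13.4 CPM of it at 0 µM. The part these markers play in the results was not tested, and in bulk libraries fewer cells of a type and less RNA or open chromatin per cell cannot be told apart.

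The later-intron peaks came from 5070 host genes. Intron 2 held 3743 of them, intron 3 held 2012 and introns 4 and beyond held 5760, up to intron 106. A total of 2034 lay in the last intron of their transcript. By the deposited annotation, the median distance to the nearest start was 9658 bp, with quartiles of 3603 and 24165 bp. The start it gave was that of the host gene in 8724 peaks (75.8%). One later-intron peak was found in each of 2784 hosts, and 10 or more in each of 107. The median level was 11.2 CPM, against 18.9 CPM in promoter peaks and 13.5 CPM in all peaks. All 11515 passed the filter on low counts.

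At 2 µM more later-intron peaks opened than closed, although the counts were close with cyclic loess scaling. Relative to 0 µM, 2834 rose (24.6%) and 1140 fell (9.9%) at an adjusted p under 0.05 in edgeR's quasi-likelihood test, and the median change was 0.15 on the log2 scale. Over all peaks 22.8% were called, 15.5% rising and 7.3% falling, with a median of 0.02. Libraries of the 2 doses compared did not overlap in CPM in 38.6% of all peaks at 2 µM over 0 µM, 68.9% at 10 µM over 0 µM and 67.4% at 10 µM over 2 µM. With limma and cyclic loess scaling, chosen after seeing the data, 1811 rose and 1727 fell. With limma and the TMM scaling of the edgeR fit 2661 rose and 1251 fell. With DESeq2 1961 rose and 780 fell, so these counts moved with the choice of method. Without 0 µM replicate 2, 1791 rose. Without 2 µM replicate 3, 534 fell, and without 2 µM replicate 2, 737 fell.

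Several of the strongest rises at 2 µM were not seen at 10 µM. In intron 2 of SEC16A (chr9:136470790-136471290), which encodes a scaffold of the sites where cargo leaves the endoplasmic reticulum, the peak had 3.15, 1.36 and 0.379 CPM at 0 µM, 24.1, 16.5 and 18.1 CPM at 2 µM, and 1.34 and 2.61 CPM at 10 µM. All 3 libraries at 2 µM were above all 5 others, and the 10 µM libraries lay among those of 0 µM. The change was 3.67 ± 0.33 (SE) at 2 µM over 0 µM (adjusted p = 3.29e-09) and -3.37 ± 0.36 at 10 µM over 2 µM (adjusted p = 2.7e-09), while 10 µM over 0 µM gave 0.29 ± 0.51 (adjusted p = 0.653). DNMT3B, a DNA methyltransferase that sets new methylation and a target of the drug, carried such a peak in intron 19 (chr20:32804278-32804778), with 3.15, 2.58 and 2.46 CPM at 0 µM, 15.8, 13.8 and 15.4 CPM at 2 µM, and 1.74 and 2.83 CPM at 10 µM. Again the 2 µM libraries stood alone. Its change was 2.47 ± 0.25 at 2 µM over 0 µM (adjusted p = 2.19e-08), whereas DNMT3B RNA changed by -0.49 ± 0.22 at 2 µM (adjusted p = 0.258) and fell by 1.51 on the log2 scale at 10 µM (SE 0.23, adjusted p = 0.000134).

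The same shape was found in MAD1L1, a spindle checkpoint gene, whose intron 9 peak (chr7:2070117-2070617) had 2.42, 2.31 and 2.65 CPM at 0 µM, 23, 23 and 18.7 CPM at 2 µM, and 2.55 and 5.65 CPM at 10 µM. Its rise at 2 µM over 0 µM was 3.1 ± 0.26 (adjusted p = 1.26e-09). LRP5, a Wnt co-receptor, had an intron 5 peak (chr11:68367404-68367904) at 5.09, 1.9 and 2.27 CPM at 0 µM, 14.1, 15.8 and 14.1 CPM at 2 µM, and 1.07 and 1.96 CPM at 10 µM. In both genes every 2 µM library exceeded every library of the other doses. Peaks in intron 8 of RAPGEF1, an activator of the RAP1 GTPase, in intron 14 of TASOR2, in intron 16 of TNS3, an adhesion protein, and in intron 2 of POR, the electron donor of cytochromes P450, rose by 3.36 ± 0.30, 3.25 ± 0.31, 2.74 ± 0.31 and 1.5 ± 0.19 at 2 µM over 0 µM and fell at 10 µM over 2 µM, and for none of these 8 genes was 10 µM over 0 µM called except TASOR2, whose peak kept a rise of 0.96 ± 0.41.

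For other peaks the rise at 2 µM went on at 10 µM. PCGF3, a Polycomb group RING finger protein, had an intron 6 peak (chr4:740849-741349) at 2.18, 1.63 and 0.947 CPM at 0 µM, 18.2, 21 and 17.6 CPM at 2 µM, and 26.3 and 33.7 CPM at 10 µM. The doses did not overlap, and the changes were 3.57 ± 0.26 at 2 µM over 0 µM (adjusted p = 9.88e-11) and 4.24 ± 0.25 at 10 µM over 0 µM (adjusted p = 6.06e-15). ASB1, a substrate receptor of a ubiquitin ligase, behaved alike in intron 3 (chr2:238439347-238439847), with 2.67, 1.77 and 2.84 CPM at 0 µM, 12.7, 23.7 and 21.4 CPM at 2 µM, and 29 and 33.5 CPM at 10 µM.

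Among the largest falls at 2 µM, some were deeper still at 10 µM. FIRRM, a regulator of recombination, had an intron 3 peak (chr1:169745036-169745536) at 22.3, 24.3 and 24.1 CPM at 0 µM, 4.81, 8.25 and 5.59 CPM at 2 µM, and 1.21 and 1.09 CPM at 10 µM. The 3 doses were separate, and the peak fell by 1.96 (SE 0.20, adjusted p = 2.89e-08) at 2 µM and by 4.32 (SE 0.30, adjusted p = 8.99e-14) at 10 µM, both over 0 µM on the log2 scale. B3GALT1, a galactosyltransferase gene, had an intron 2 peak (chr2:167510237-167510737) that fell by 2.37 at 2 µM (SE 0.27) and by 2.46 at 10 µM (SE 0.29), with no call between 10 µM and 2 µM (-0.09 ± 0.38, adjusted p = 0.86). Peaks in MCF2L intron 2 and TMEM117 intron 3 fell by 1.79 and 2.02 at 2 µM and by 4.18 and 3.44 at 10 µM.

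**Figure D1:**
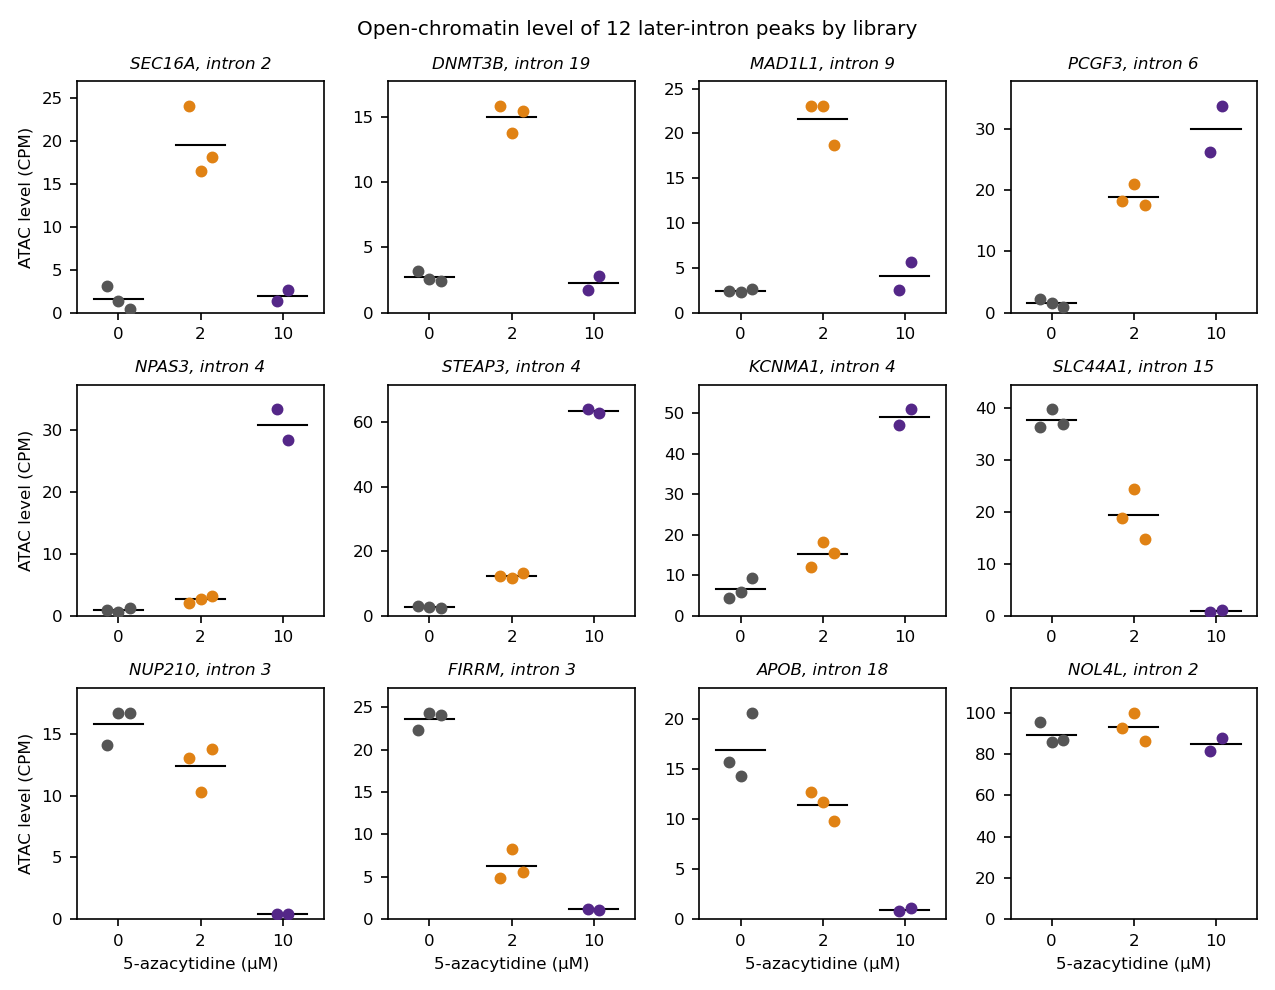
ATAC level in CPM (vertical axis, from 0) of single later-intron peaks at 0, 2 and 10 µM 5-azacytidine (horizontal axis). Each point is a library and each bar the mean of its dose. SEC16A, DNMT3B and MAD1L1 are high at 2 µM alone, PCGF3, NPAS3, STEAP3 and KCNMA1 are highest at 10 µM, SLC44A1, NUP210, FIRRM and APOB are lowest at 10 µM, and NOL4L lies between 81.6 and 100 CPM in all 8 libraries.

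At 10 µM most later-intron peaks changed, and in the main fit as many opened as closed. The balance moved with the method: 3475 rose and 4545 fell with cyclic loess scaling, and 3460 and 3127 with a 2-fold limit. Relative to 0 µM, 4345 rose (37.7%) and 4342 fell (37.7%), together 75.4%, with a median change of -0.06. Over all peaks 57.5% were called, 29.9% rising and 27.6% falling. Rises of at least 4-fold were called in 2155 later-intron peaks (18.7%) and falls of that size in 1430 (12.4%), beside 10.3% and 6.48% of all peaks. The median absolute change was 1.24 on the log2 scale in later-intron peaks, 1.01 in distal intergenic peaks, 0.80 in first-intron peaks and 0.29 in promoter peaks. Relative to 2 µM, 3693 rose (32.1%) and 4490 fell (39%), beside 55.1% called over all peaks, 27.5% rising and 27.6% falling.

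Large rises at 10 µM were found both in genes with little RNA and in transcribed genes. NPAS3, a transcription factor of the nervous system, had an intron 4 peak (chr14:33647468-33647968) at 0.97, 0.68 and 1.33 CPM at 0 µM, 2.06, 2.75 and 3.27 CPM at 2 µM, and 33.4 and 28.5 CPM at 10 µM. The 10 µM libraries stood far above the rest, and the change at 10 µM over 0 µM was 4.99 ± 0.28 (adjusted p = 1.55e-15). NPAS3 RNA was at 0 CPM in the 0 µM libraries and at 2.01, 0.787 and 1.35 CPM in the 10 µM libraries. SPOCK1, a secreted proteoglycan, had an intron 2 peak (chr5:137470611-137471111) at 1.7, 0.544 and 0.568 CPM at 0 µM, 3.78, 1.72 and 1.91 CPM at 2 µM, and 31.3 and 21.3 CPM at 10 µM, a rise of 4.95 ± 0.33 at 10 µM over 0 µM (adjusted p = 5.19e-14). SPOCK1 RNA was at 0.55, 0.269 and 0.546 CPM at 10 µM against 0, 0.0257 and 0.0512 CPM at 0 µM. In intron 3 of MED27, a Mediator subunit with RNA at 26.1 to 30.7 CPM at 10 µM against 8.44 to 17.4 CPM at 0 µM, the 10 µM libraries held 108 and 37 reads and the 0 µM libraries 1, 0 and 1, too few for a fold. This peak was called at 10 µM over 0 µM (adjusted p = 5.25e-12) but not with cyclic loess scaling (adjusted p = 0.956).

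Large falls were found in genes that the cells transcribed. SLC44A1, a choline transporter, had a peak in its last intron, 15 of 15 (chr9:105418446-105418946), at 36.4, 39.7 and 36.9 CPM at 0 µM, 18.9, 24.4 and 14.9 CPM at 2 µM, and 0.671 and 1.09 CPM at 10 µM. The 3 doses were separate, and the peak fell by 5.46 on the log2 scale at 10 µM over 0 µM (SE 0.30, adjusted p = 1.36e-15). Its RNA fell by 1.92 (SE 0.22, adjusted p = 1.62e-05). NUP210, a nuclear pore membrane protein, had a pair of such peaks: that in intron 3 (chr3:13393672-13394172) had 14.1, 16.7 and 16.7 CPM at 0 µM, 13.1, 10.3 and 13.8 CPM at 2 µM, and 0.402 and 0.435 CPM at 10 µM, and that in intron 14 (chr3:13364028-13364528) had 1.21 and 2.39 CPM at 10 µM against 43.9, 41.9 and 41.7 CPM at 0 µM. They fell by 5.18 (SE 0.38) and by 4.65 (SE 0.25) at 10 µM over 0 µM, and the intron 3 peak changed by -0.33 ± 0.19 at 2 µM over 0 µM (adjusted p = 0.201). The 10 µM levels of SLC44A1 intron 15 and NUP210 intron 3 rest on few reads, so the sizes of these falls are uncertain. SEPSECS, which makes selenocysteine on its tRNA, fell by 5.26 in intron 8 (SE 0.44), with RNA at 39.5, 36.4 and 37.3 CPM at 10 µM against 27.8, 37.7 and 62.2 CPM at 0 µM.

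Peaks also closed between 2 and 10 µM after opening or staying level. CCDC152 intron 5 (chr5:42798386-42798886), which lies 8412 bp from the start of SELENOP, the plasma selenium carrier made by liver, had 16, 5.17 and 10.4 CPM at 0 µM, 28.2, 21.7 and 14.3 CPM at 2 µM, and 0.268 and 1.74 CPM at 10 µM. It rose by 1.03 ± 0.28 at 2 µM over 0 µM (adjusted p = 0.00666), although 1 library at 2 µM lay below the highest at 0 µM. It fell by 4.56 at 10 µM over 2 µM (SE 0.49, adjusted p = 3e-09), a size that is uncertain because its 10 µM levels rest on few reads. STK24, a kinase of the MST family, had an intron 2 peak (chr13:98490274-98490774) at 15.3, 19.2 and 18.2 CPM at 0 µM, 20.6, 16.9 and 15 CPM at 2 µM, and 1.07 and 0.435 CPM at 10 µM. Its RNA was at 211, 203 and 215 CPM at 10 µM against 204, 198 and 248 CPM at 0 µM.

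Some of the most open later-intron peaks hardly moved. NOL4L intron 2 (chr20:32465497-32465997) had 95.3, 85.7 and 86.9 CPM at 0 µM, 92.8, 100 and 86.5 CPM at 2 µM, and 81.6 and 87.6 CPM at 10 µM, and none of its 3 comparisons was called. MOGAT1, a monoacylglycerol acyltransferase gene, had in intron 5 of 5 (chr2:222709184-222709684) 115, 116 and 118 CPM at 0 µM, 101, 88.3 and 75.6 CPM at 2 µM, and 116 and 124 CPM at 10 µM. The dip at 2 µM was called (-0.41 ± 0.13, adjusted p = 0.0182) and 10 µM over 0 µM was not (0.05 ± 0.14, adjusted p = 0.798), while MOGAT1 RNA fell by 3.13 at 10 µM over 0 µM (SE 0.44, adjusted p = 9.2e-05).

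Counted by the dose at which a peak was highest on average, 3795 later-intron peaks (33%) were highest at 0 µM, 2942 (25.5%) at 2 µM and 4778 (41.5%) at 10 µM, beside 31.7%, 22.1% and 46.2% of all peaks. Every library of the highest dose was above every library of both others in 1588 (13.8%), 1013 (8.8%) and 3892 (33.8%) of them, beside 10.7%, 6.51% and 28.3% of all peaks.

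As a class, later-intron peaks took up 15.69, 15.44 and 15.67% of all peak reads in the 0 µM libraries, 17.19, 16.53 and 15.58% in the 2 µM libraries, and 14.88 and 16.26% in the 10 µM libraries. Each pair of doses overlapped. The difference was 0.835 percentage points at 2 µM over 0 µM, -0.0282 at 10 µM over 0 µM and -0.863 at 10 µM over 2 µM, and in 2-sided exact permutation tests over libraries, adjusted over 12 class tests, the adjusted p was 0.45, 1 and 0.533. The mean log2 CPM of later-intron peaks was set against that of other classes within each library. It exceeded that of distal intergenic peaks by 0.045 ± 0.016 (SD, n = 3) at 2 µM and lay below it by 0.089 ± 0.017 at 0 µM (SD, n = 3). The difference of 0.134 reached the smallest p these numbers of libraries allow, 0.1 by exact permutation (adjusted p = 0.24), as did the differences of -0.0754 at 10 µM over 0 µM and -0.21 at 10 µM over 2 µM. Against first-intron and promoter peaks the same quantity was higher at 2 µM than at 0 µM by 0.0795 and 0.284, at the same exact permutation p of 0.1, and at 10 µM over 0 µM the differences were -0.000182 and 0.0589. Called peaks made up 65.8% of first-intron, 71.4% of distal intergenic and 35.4% of promoter peaks at 10 µM over 0 µM, and these shares were not tested against the 75.4% of later-intron peaks.

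**Figure D2:**
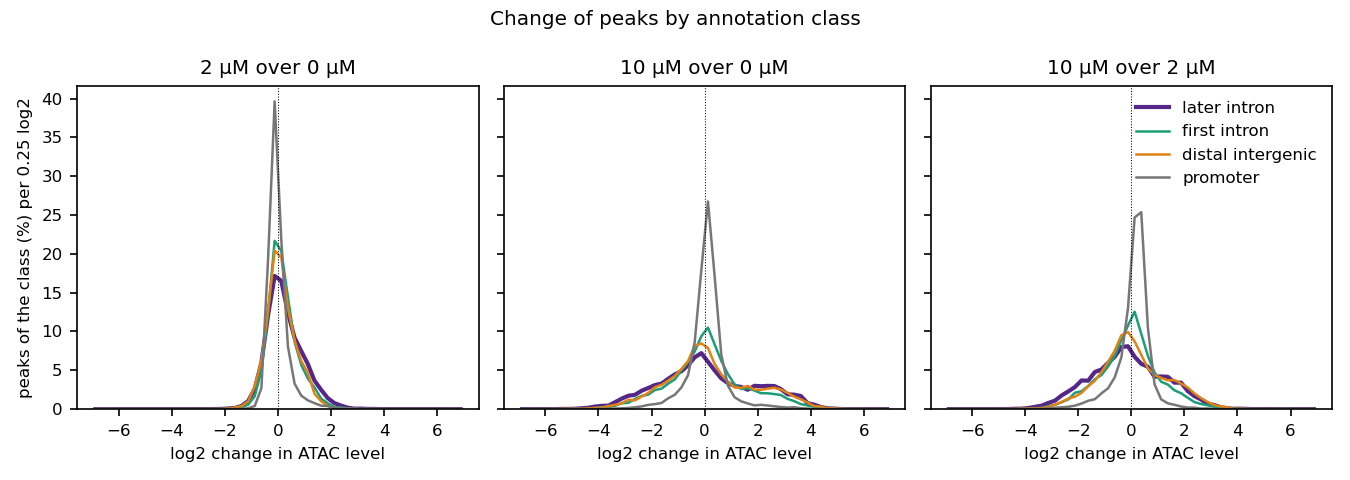
Distribution of log2 changes (horizontal axis) by annotation class for 2 µM over 0 µM, 10 µM over 0 µM and 10 µM over 2 µM. The vertical axis gives the percent of the class per 0.25 log2. At 10 µM over 0 µM the later-intron line is broad and low, with a median absolute change of 1.24, and the promoter line is narrow, with 0.29.

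By place in the gene the shares were close. At 10 µM over 0 µM the share called ran between 74.2% in last introns and 76.2% in intron 6 or later. By distance to the start that the deposited annotation gives as nearest, they were further apart. More than 50 kb away 48.3% rose and 35.8% fell (396 rose and 445 fell with cyclic loess scaling), and within 2 kb 30.5% rose and 34.2% fell. Such a peak can still lie over another annotated start. A DAB1 intron 4 peak, given as 255371 bp away, holds a whole RefSeq promoter window of DAB1. Tertiles of level were set by the mean over all 8 libraries, of which only 2 were at 10 µM, so a peak's own change helps to place it and the split is a description. In the lowest tertile, 2.41 to 9.04 CPM, 2184 of 3839 rose (56.9%) and 1028 fell (26.8%), but 1084 rose and 1399 fell with cyclic loess scaling. In the highest tertile, 14.1 to 107 CPM, 25.6% rose and 46% fell. Chromosome 18 had the largest share rising at 10 µM over 0 µM (44.9%) and chromosome 19 the smallest (26.5%).

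Neighbouring peaks of a gene mostly shared a direction over short gaps. Of 601 pairs of adjacent later-intron peaks of 1 host that lay up to 1 kb apart and were both called at 10 µM over 0 µM, 485 (80.7%) changed in the same direction. The share was 65.9% at 1 to 5 kb, 60.8% at 5 to 20 kb, 58.9% at 20 to 100 kb and 55% over 100 kb. At 2 µM over 0 µM it ran from 90.7% up to 1 kb to 48.9% over 100 kb (23 of 47 pairs). In that comparison more later-intron peaks rose (24.6%) than fell (9.9%), against 37.7% each way at 10 µM over 0 µM. Unlinked called peaks would then share a direction more often at 2 µM, so the shares of the 2 doses are not alike. Adjacent peaks can share reads of 1 open region, so pairs were not treated as independent and no test was made. Of 798 hosts with at least 4 later-intron peaks, 780 had at least 2 called at 10 µM over 0 µM, and 561 of these held both rising and falling peaks, 98 only rising and 121 only falling ones. With 37.7% of later-intron peaks called each way, unlinked peaks would also often give both directions in such a host. These counts were not tested.

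**Figure D3:**
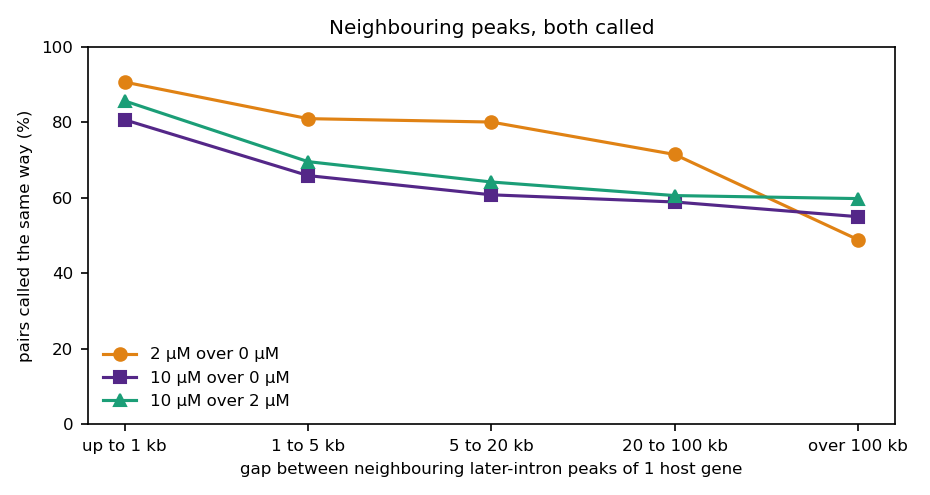
Percent of pairs of neighbouring later-intron peaks of 1 host gene, both called, that changed in the same direction (vertical axis), by the gap between them (horizontal axis), for the 3 dose comparisons. At 10 µM over 0 µM the share is 80.7% up to 1 kb and 55% over 100 kb.

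HNF4A, the nuclear receptor that upholds hepatocyte genes, shows how close opposite changes can be. In its intron 3, the peak at chr20:44410096-44410596 had 10.7, 9.79 and 8.33 CPM at 0 µM, 14.4, 14.8 and 19.5 CPM at 2 µM, and 19.3 and 27.8 CPM at 10 µM, and that at chr20:44411105-44411605 had 81.7, 82.1 and 85.2 CPM at 0 µM, 78, 64.6 and 65.5 CPM at 2 µM, and 34.1 and 33.5 CPM at 10 µM. The minor peak opened and the major one closed, with no overlap between 10 µM and 0 µM in either. At 10 µM over 0 µM they changed by 1.28 ± 0.20 (adjusted p = 1.29e-06) and -1.3 ± 0.15 (adjusted p = 2.64e-09), and HNF4A RNA fell by 1.83 (SE 0.21, adjusted p = 2e-05). HDAC4, a class IIa histone deacetylase, showed the same within 1 gene: its intron 2 peak at chr2:239246663-239247163 rose by 1.71 ± 0.26 at 10 µM over 0 µM (adjusted p = 9.7e-07), and its intron 4 peak at chr2:239182082-239182582 fell by 2.48 (SE 0.24, adjusted p = 1.64e-10).

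The hosts with the most later-intron peaks differed in balance. At 10 µM over 0 µM all later-intron peaks gave 37.7% each way, and all peaks 29.9% rising and 27.6% falling. The hosts were not tested against these shares. GSE1, a coiled-coil protein of repressor complexes, held 37, of which 7 rose and 17 fell at 10 µM over 0 µM. ATXN1, a transcriptional corepressor mutated in ataxia, held 26, of which 18 rose and 4 fell. TTC7A, which anchors a lipid kinase at the membrane, held 24, of which 2 rose and 16 fell, and its RNA fell by 1.78 (SE 0.22, adjusted p = 3e-05). ZMIZ1, a SUMO-ligase-like coactivator, held 28 (7 rose, 9 fell), LRMDA held 25 (8 rose, 12 fell) and AOPEP, an aminopeptidase, held 23 (3 rose, 12 fell).

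RNA of the host gene was tested at the same doses by an assay that the choice of peaks did not use. Of 11515 later-intron peaks, 9226 had a host whose RNA was tested (3712 genes). Over all 18999 genes tested, 48.1% were called at 10 µM over 0 µM, 23% rising and 25.1% falling. Where host RNA rose, 1119 of 2308 peaks rose (48.5%) and 661 fell (28.6%), and where it fell, 748 of 3076 peaks rose (24.3%) and 1545 fell (50.2%). With RNA not called, 35.4% rose and 37.4% fell. The same split was seen over all peaks, later-intron peaks among them, paired with their nearest gene. There 40.3% rose and 17.4% fell where RNA rose, and 18.7% rose and 38.5% fell where it fell. Later-intron peaks paired in that way gave 49.1% and 27.8% where RNA rose, and 24.3% and 50.5% where it fell. In all, 2664 later-intron peaks were called in the direction of their host's RNA and 1409 against it. At 2 µM over 0 µM, where 4.28% of all genes were called (3.22% rising, 1.06% falling), these counts were 141 and 79, and at 10 µM over 2 µM, where 38.4% of genes were called (16.8% rising, 21.6% falling), 2028 and 1159.

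Among the peaks that moved with their host, DST, a giant linker of the cytoskeleton, had an intron 2 peak (chr6:56938562-56939062) at 4.37, 5.3 and 6.25 CPM at 0 µM, 10.7, 15.5 and 15.7 CPM at 2 µM, and 70.2 and 60.5 CPM at 10 µM. The doses did not overlap, and the rise at 10 µM over 0 µM was 3.61 ± 0.18 (adjusted p = 4.13e-16), beside a rise of 2.09 ± 0.27 in RNA (adjusted p = 3.88e-05). SEPTIN10, a filament GTPase, RALB, a RAS-like GTPase, and MAST4, a kinase, rose by 3.79 ± 0.19, 3.58 ± 0.19 and 3.69 ± 0.20 in peaks of introns 8, 3 and 4, and by 1.15 ± 0.22, 1.56 ± 0.22 and 2.5 ± 0.28 in RNA. ANTXR1, an adhesion receptor for collagen, fell by 3.49 in intron 17 (SE 0.19) and by 2.43 in RNA (SE 0.35).

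Other peaks went against their host. STEAP3, an iron reductase of endosomes, had an intron 4 peak (chr2:119252789-119253289) at 2.91, 2.85 and 2.46 CPM at 0 µM, 12.4, 11.7 and 13.2 CPM at 2 µM, and 63.9 and 62.6 CPM at 10 µM. Its 3 doses were separate and tight, and the rise at 10 µM over 0 µM was 4.52 ± 0.19 (adjusted p = 2.37e-17), the smallest adjusted p among the peaks named here. STEAP3 RNA was at 23.3, 33.4 and 20.9 CPM at 10 µM against 57.7, 56.8 and 33 CPM at 0 µM and fell by 0.92 (SE 0.27, adjusted p = 0.0116); the nearest start to the peak was that of its antisense gene. OSMR, the oncostatin M receptor, rose by 4.12 ± 0.24 in an intron 2 peak while its RNA fell by 1.29 (SE 0.29), and SLC39A11, a zinc transporter, rose by 3.09 ± 0.18 in intron 4 while its RNA fell by 2.83 (SE 0.27). In the other direction, SH3BP4, an endocytic adaptor, fell by 2.94 in intron 2 (SE 0.17) while its RNA rose by 1.09 ± 0.19, and FBXO6, which marks misfolded glycoproteins for degradation, fell by 3.35 in intron 3 (SE 0.20) while its RNA rose by 1.81 ± 0.22.

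Later-intron peaks of hosts with little or no RNA at 0 µM rose more often than they fell. At 10 µM over 0 µM all later-intron peaks gave 37.7% each way, and all peaks 29.9% rising and 27.6% falling. Of 1686 later-intron peaks whose host had a mean under 0.1 CPM of RNA at 0 µM, 904 rose (53.6%) and 433 fell (25.7%). With cyclic loess scaling 600 of them rose and 461 fell. The median ATAC level of these peaks was 8, 7.48 and 7.95 CPM in the 0 µM libraries, 9.62, 8.59 and 7.91 CPM in the 2 µM libraries, and 12.7 and 12.5 CPM in the 10 µM libraries. In hosts over 100 CPM the medians were 11.9, 10.9 and 11.7 CPM at 0 µM, 14.8, 13.8 and 12.5 CPM at 2 µM, and 10.5 and 11.5 CPM at 10 µM, and of 2128 such peaks 691 rose (32.5%) and 881 fell (41.4%) at 10 µM over 0 µM. The peaks of silent hosts thus had their highest level at 10 µM and those of the most expressed hosts at 2 µM.

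**Figure D4:**
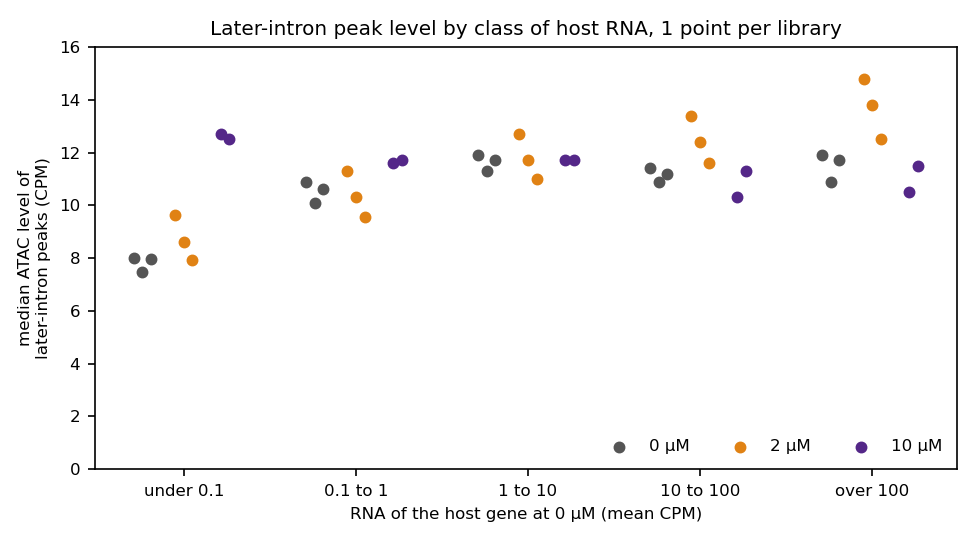
Median ATAC level of later-intron peaks in CPM (vertical axis, 1 point per library) by the mean RNA level of the host gene at 0 µM in CPM (horizontal axis), with libraries at 0, 2 and 10 µM side by side. Under 0.1 CPM the 10 µM libraries lie at 12.7 and 12.5 CPM, above all others, and over 100 CPM all 3 libraries at 2 µM lie above all others.

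Later-intron peaks were also sorted by the promoter peak of their host. Of 8348 later-intron peaks whose host had one, 34.8% rose and 39.7% fell at 10 µM over 0 µM. In the 5777 whose promoter was not called, the shares were close to these, with 2089 rising (36.2%) and 2207 falling (38.2%). Where the promoter fell, 322 of 1256 later-intron peaks rose (25.6%) and 605 fell (48.2%). Where it rose, 497 of 1315 rose (37.8%) and 500 fell (38%).

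Peaks in genes of the liver programme mostly closed at 10 µM. Of 26 later-intron peaks in 7 genes of secreted liver proteins, 1 rose (3.85%) and 19 fell (73.1%) relative to 0 µM. All later-intron peaks gave 37.7% each way, and all peaks 29.9% rising and 27.6% falling. The median of the list was -2.46 on the log2 scale, beside -0.06 for all later-intron peaks and 0.05 for all peaks. RNA fell for all 45 tested genes of this list, beside 25.1% of all genes tested. APOB, the protein of low-density lipoprotein, had an intron 18 peak (chr2:21020043-21020543) at 15.8, 14.3 and 20.6 CPM at 0 µM, 12.7, 11.7 and 9.82 CPM at 2 µM, and 0.805 and 1.09 CPM at 10 µM. Both libraries at 10 µM were far below all others, and the fall was 4.16 (SE 0.34, adjusted p = 2.59e-12). Its size is uncertain because these 10 µM levels rest on few reads. TF, the iron carrier transferrin, fell by 1.85 (SE 0.18) and by 2.88 (SE 0.26) in a pair of intron 3 peaks, and APOC3, an inhibitor of lipoprotein lipase, by 2.25 (SE 0.22) in its last intron. The hepatocyte marker list, which shares APOB and TF with this one, had 2 rising (8.7%) and 17 falling (73.9%) of 23.

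Transcription factors and enzymes of liver were more mixed. Of 69 peaks in genes of liver transcription factors and cofactors, 15 rose (21.7%) and 33 fell (47.8%) at 10 µM over 0 µM, beside 37.7% each way of all later-intron peaks. MLXIPL, the glucose-responsive factor ChREBP, fell by 2.78 in intron 2 (SE 0.24), and RXRA, the shared partner of many nuclear receptors, rose by 2.01 ± 0.28 in intron 2 and fell by 1.76 in intron 9 (SE 0.17). PROX1, a factor of hepatoblasts and lymphatic endothelium, rose by 2.89 ± 0.24 in intron 4. In lipid, sterol and bile acid genes 13 of 42 rose (31%) and 17 fell (40.5%): GPAM, which starts triglyceride synthesis, fell by 3.6 in intron 5 (SE 0.28), ABCB4, the phospholipid exporter of bile, fell by 4.06 in intron 3 (SE 0.28), and ABCB11, the bile salt exporter, rose by 1.79 ± 0.14 in intron 5 with 81.4 and 85.7 CPM at 10 µM against 22.1, 24.7 and 25.4 CPM at 0 µM. In xenobiotic genes 8 of 31 rose (25.8%) and 13 fell (41.9%), and at 2 µM over 0 µM 12 rose (38.7%) and 1 fell (3.23%), beside 24.6% and 9.9% of all later-intron peaks. ABCC6, a transporter of liver whose loss causes calcification, rose by 2.95 ± 0.19 in intron 9 while its RNA fell by 2.74 (SE 0.24).

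Genes of synapse and neuronal adhesion, the list with the most peaks, gave the largest count of rises. Of 154 later-intron peaks in 45 such genes, 92 rose (59.7%) and 39 fell (25.3%) at 10 µM over 0 µM, with a median of 1.19. All later-intron peaks gave 37.7% each way, and all peaks 29.9% and 27.6%. With cyclic loess scaling 49 peaks of the list rose and 40 fell, with a median of 0.07. In RNA, 5 of 20 tested genes rose and 6 fell, near the 23% and 25.1% of all genes tested. KCNMA1, a calcium-activated potassium channel, had an intron 4 peak (chr10:77163905-77164405) at 4.37, 5.98 and 9.28 CPM at 0 µM, 12, 18.2 and 15.6 CPM at 2 µM, and 47.1 and 50.9 CPM at 10 µM. The doses did not overlap, and the rise at 10 µM over 0 µM was 2.88 ± 0.20 (adjusted p = 9.2e-14). CNTNAP4, a synaptic adhesion protein, rose by 4.5 ± 0.26 in its last intron with RNA at 0 in all 9 libraries, and LRP1B, a lipoprotein receptor family member of neurons, by 3.86 ± 0.27 in intron 41.

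Genes of DNA methylation and silencing had 21 rising (30.9%) and 3 falling (4.41%) peaks of 68 at 2 µM over 0 µM, beside 24.6% and 9.9% of all later-intron peaks. At 10 µM over 0 µM they had 18 rising (26.5%) and 23 falling (33.8%), beside 37.7% each way. Besides DNMT3B, an intron 2 peak of DNMT3A rose by 2.38 ± 0.24 at 10 µM over 0 µM (adjusted p = 4.25e-10), with 25.5 and 26.3 CPM at 10 µM against 8, 3.13 and 4.73 CPM at 0 µM, and its RNA fell by 0.52 (SE 0.19, adjusted p = 0.0368). DNMT1, the maintenance methyltransferase, rose by 0.84 ± 0.19 in intron 2 at 2 µM over 0 µM (adjusted p = 0.00125) and was not called at 10 µM over 0 µM (0.29 ± 0.21, adjusted p = 0.243).

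The lists that follow are read against 37.7% rising and 37.7% falling among all later-intron peaks, and 29.9% and 27.6% among all peaks, at 10 µM over 0 µM. Actin, adhesion and SRF/YAP genes had 46 rising (30.7%) and 66 falling (44%) peaks of 150, oncofetal and imprinted genes 19 (24.7%) and 37 (48.1%) of 77, and tumour suppressors often methylated in liver cancer 15 (28.3%) and 27 (50.9%) of 53. TGF-beta and matrix genes, with 31 and 31 of 90 (34.4% each way), Wnt genes, with 23 (33.3%) and 25 (36.2%) of 69, and AP-1, MAPK and receptor kinase genes, with 34 (40.5%) and 28 (33.3%) of 84, lay near the shares of all later-intron peaks. ACTN4, an actin crosslinker, fell by 3.78 in intron 12 (SE 0.20), LGR5, a Wnt-amplifying receptor, by 4.09 in intron 4 (SE 0.32), and FGFR3, a fibroblast growth factor receptor, by 2.56 in intron 7 (SE 0.18). RUNX1, a factor of blood development, rose by 2.8 ± 0.22 in intron 4, IGF2BP2, an oncofetal RNA-binding protein, by 3.01 ± 0.20 in intron 10, and HMGA2, an embryonic chromatin protein, by 2.56 ± 0.22 in intron 3. BCL2 family and sulfide genes had 7 rising and 5 falling of 17, with BCL2L11, the cell death activator BIM, up by 3.29 ± 0.22 in intron 4 and not called in RNA (0.03 ± 0.20, adjusted p = 0.923). Interferon and antigen presentation genes had 4 and 5 of 14, p53 targets 1 and 3 of 8, and cancer-testis genes 4 and 2 of 8.

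Some peaks in marker genes of other cell types rose where the gene had no RNA. At 10 µM over 0 µM endothelial markers had 9 rising (50%) and 2 falling (11.1%) of 18, and 6 and 3 with cyclic loess scaling. Cholangiocyte and other epithelial markers had 7 rising (58.3%) and 0 falling of 12, and 6 and 0 with cyclic loess scaling. Under that scaling peaks of ERG (0.04) and KRT7 (0.10) lost the call and a peak of VWF turned (-0.93). Fibroblast markers had 3 and 2 of 8 and leukocyte markers 2 and 2 of 4, and for all later-intron peaks the shares were 37.7% each way. KDR, the VEGF receptor of endothelium, had an intron 3 peak (chr4:55116282-55116782) at 1.7, 1.22 and 1.33 CPM at 0 µM, 7.56, 7.22 and 5.05 CPM at 2 µM, and 18.2 and 20 CPM at 10 µM, a rise of 3.77 ± 0.28 (adjusted p = 5.81e-13), with RNA at 0 in 8 of 9 libraries. PTPRC rose by 2.79 ± 0.26 in intron 2 and EMCN, an endothelial sialomucin, by 2.16 ± 0.21 in intron 2, both with RNA at 0 in all 9 libraries.

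**Figure D5:**
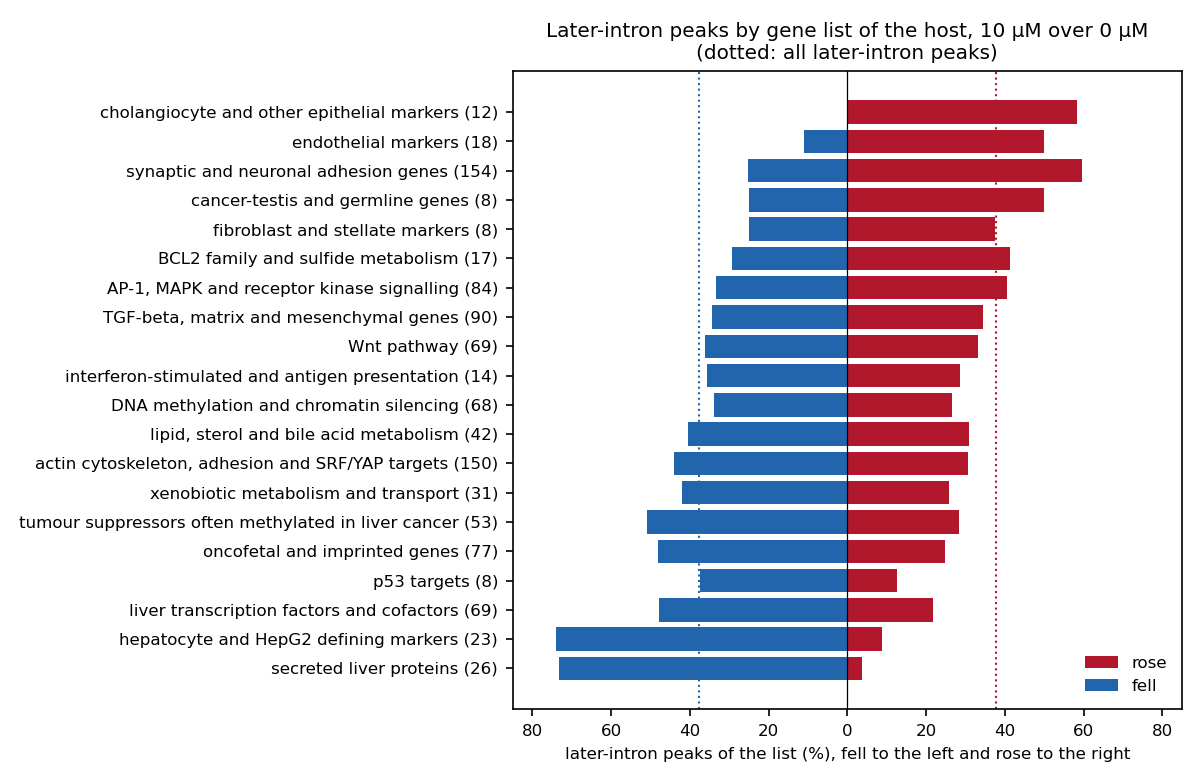
Percent of later-intron peaks that rose (right) or fell (left) at 10 µM over 0 µM, by gene list of the host, with the number of peaks in brackets. Dotted lines mark all later-intron peaks (37.7% each way). Secreted liver proteins have 73.1% falling and synaptic genes 59.7% rising, the synaptic list with 49 of 154 rising and 40 falling under cyclic loess scaling.

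The windows printed above are from peaks among the 68 later-intron peaks that overlap a RefSeq promoter window. Some of the 68 do not reach the start itself. Of the 68, 28 rose (41.2%) and 13 fell (19.1%) at 10 µM over 0 µM. All later-intron peaks gave 37.7% each way, and all peaks 29.9% and 27.6%. In intron 4 of LPCAT1, an enzyme of surfactant and membrane lipid remodelling, the peak at the start of LOC124901162 had 0.728, 1.22 and 2.27 CPM at 0 µM, 5.15, 6.53 and 6.27 CPM at 2 µM, and 21.1 and 21.5 CPM at 10 µM. The 3 doses were separate, and the rise at 10 µM over 0 µM was 3.87 ± 0.28 (adjusted p = 3.19e-13). In intron 18 of RPTOR, the scaffold of mTOR complex 1, and in intron 3 of TIMP2, a metalloprotease inhibitor, such peaks rose by 3.76 ± 0.30 and 2.55 ± 0.23. HDAC4 has an own alternative start in intron 2 whose peak rose by 1.5 ± 0.24 at 2 µM and by 0.88 ± 0.26 at 10 µM, both over 0 µM.

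TET1, a dioxygenase that oxidises methylcytosine, had a peak over an own start in intron 2 at 46.3, 47.5 and 53.8 CPM at 0 µM, 34, 34.4 and 33.8 CPM at 2 µM, and 22.7 and 27.2 CPM at 10 µM. The doses did not overlap, and the peak fell by 0.99 at 10 µM over 0 µM (SE 0.15, adjusted p = 9.8e-07), with a fall of 2.71 in RNA (adjusted p = 1.09e-05). Peaks in TBX4, a limb and lung factor, BBOX1-AS1, an antisense RNA, and PHLPP2, a phosphatase of AKT, fell by 1.7, 1.57 and 1.37.

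An AP-1 match (TGANTCA, the same letters on both strands) was in a window of 16 of the 28 rising peaks (57.1%), 0 of the 13 falling peaks and 4 of the 27 not called (14.8%), and in 7.71% of all 35116 RefSeq promoter windows of this length. A TEAD match (GGAATG) was in 39.3%, 30.8% and 33.3% of the same groups and in 14% of all promoters, and a GATA match (AGATAA) in 14.3%, 15.4% and 14.8% and in 10.3% of all. FOXA (TGTTTAC), HNF4A (CAAAGTCCA), HNF1 (GTTAATNAT), CEBP (TTGCGCAA), CRE (TGACGTCA), CTCF (AGNGGGCGC) and NRF1 (GCGCNTGCG), searched on both strands, were each in at most 1 peak of each group and in 0.151% to 7.47% of all promoters. No searched motif contains another. These are matches of letters in 300-base windows, not measured binding, and most later-intron peaks have no such window. Each window was searched whole and 33 of 73 lie wholly inside their peak, so a match may lie outside the peak. The windows held a median of 8 CpG sites against 14 in all promoters, so the promoters differ from them in CpG content. The shares were not tested.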

How the data were processed

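RNA-seq and ATAC-seq libraries of HepG2 cells at 3 doses were compared. The authors deposited raw read counts, per peak for ATAC-seq and per gene for RNA-seq. The submitters' processing notes name hg38 and, with no roles, HTSeq 2.0.4, HISAT2 2.2.1, DESeq2 1.42.1 and DiffBind 3.12.0. The peak caller and any use of strand in counting are not given in the sources used here. RNA of a gene and its antisense partner may therefore be mixed. Peak annotation is the authors', as deposited. Other deposited tables were not used here.

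Host genes were matched by the identifier inside the annotation, and 281 of 11515 later-intron peaks had no symbol. Of 63187 RNA identifiers, 62666 matched a symbol and 18999 passed the filter. The main test was edgeR's quasi-likelihood F-test (version 4.0.16, R 4.3.3, TMM scaling over all peaks or genes, filterByExpr, all doses in 1 model, Benjamini-Hochberg over all features, threshold 0.05). Adjusted p-values are from this test unless another is named. Each SE was taken as the size of the log2 change divided by sqrt(F), with a prior count of 0.125. TMM sets changes relative to most peaks, so a change shared by all would not show. CPM are counts over the TMM-scaled library size. Class levels used a prior count of 0.5 and exact permutation tests. The procedure was tested on simulated data.

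The members, 21 gene lists and rules were chosen with earlier results of these data known. Named peaks were the 8 largest non-overlapping changes per direction and comparison with at least 2 CPM in the higher dose, up to 4 per list by adjusted p, those most open, the hosts with most peaks, and those moving with or against host RNA; a part is given. The 2 alternative-start peaks of TET1 and HDAC4 and the other printed windows lie outside this rule. Alternatives covered scaling, filter, DESeq2 1.42.0, a replicate block, doses compared alone, a 2-fold limit, single libraries left out and, added after seeing the data, limma 3.58.1 with cyclic loess and with TMM scaling.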

Additional observations from a re-analysis of the deposited data

How the results depend on the processing

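Counts of later-intron peaks kept within 1.5 times of the reported ones in every alternative at 10 µM over 0 µM and 10 µM over 2 µM. At 2 µM over 0 µM, the falls (1140) became 723 with TMM from promoter peaks, 1727 with cyclic loess, 191 with a 2-fold limit, and 534 to 1657 with 1 library left out, and the rises (2834) became 1811 with cyclic loess, 1658 with a 2-fold limit, and 1791 to 2853 with 1 library left out. With 1 library left out, 10 µM over 0 µM gave 4023 to 4350 rises and 3801 to 4547 falls, and 10 µM over 2 µM gave 3322 to 3697 and 3605 to 4623. Replicate numbers did not pair the libraries: deviations of same-numbered 0 and 2 µM libraries correlated at 0.124, -0.0182 and -0.0526. With the 2 µM and 0 µM libraries fitted alone and no block, 2 µM over 0 µM gave 2824 rises and 1662 falls. With the number added to that fit as a replicate block, it gave 2828 and 1743. With the block in the fit of all doses, it gave 2571 and 904. TMM from promoter peaks moved the median of all peaks at 10 µM over 2 µM to -0.10, beside 0.06.

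The class share at 10 µM over 0 µM (-0.0282 points) was 0.00829 of non-promoter reads, 0.159 without the top 1% of peaks, and -0.72 to 0.664 with 1 library left out, turning at 0.0159 and 0.00705 without 0 µM replicates 1 and 3. Left out singly, libraries gave -0.0245 to 0.0244 for later-intron against first-intron peaks, with 0.00793 without 0 µM replicate 3, and -0.0752 to 0.194 against promoter peaks. With DESeq2 for RNA, 258 peaks were called with and 148 against host RNA at 2 µM over 0 µM.

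Of 274 calls on named peaks, 232 held in every alternative tried on them and 38 lost the call in at least 1. In 5 the change turned, all under cyclic loess: KDM1A (-0.42) and VWF (-0.93) at 10 µM over 0 µM, and VWF (-0.24), FHIT (-0.36) and POLK (-0.29) at 10 µM over 2 µM. The 2-fold limit was not applied to single peaks, and the filter settings could change none, since every peak passed. Most of these peaks were picked in the same data for large changes or small adjusted p, so most were likely to hold. With limma and TMM scaling 272 of the 274 held and 0 turned. Only 2 libraries at 10 µM and 2896671 to 7864321 peak reads per library limit low peaks most.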
